A study of Schizosaccharomyces pombe with 127 samples.

Results

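The ght genes of fission yeast (Schizosaccharomyces pombe) encode the hexose transporters of the plasma membrane, a family of closely related sugar permeases. The 8 genes ght1 to ght8 were taken by name, and all 8 were measured, each by 2 probes, among 4929 features on the array. The family was chosen with earlier results of these data known. All its named members were taken whatever their values, and none was lost to a filter on low values.

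Hexose transporters of this kind belong to the major facilitator superfamily and carry sugar across the plasma membrane, in this species together with protons. Ght5 is the main high-affinity glucose transporter and is needed for growth when glucose is scarce. Ght1 and Ght2 also take up glucose, Ght6 prefers fructose, and Ght3 carries gluconate, while Ght4, Ght7 and Ght8 are known mainly as members of the family by sequence. Glucose represses some of these genes. The signal runs through the adenylate cyclase Cyr1, whose product cyclic AMP frees protein kinase A (Pka1) from its regulatory subunit Cgs1, and active Pka1 restrains the transcription activator Rst2. The AMP-activated kinase Ssp2, with its upstream kinase Ssp1, acts in growth on low glucose.

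The members carry the systematic names SPCC548.07C (ght1), SPBC4B4.08 (ght2), SPAC1F8.01 (ght3), SPBC1683.08 (ght4), SPCC1235.14 (ght5), SPCC1235.13 (ght6), SPBC1348.14C (ght7) and SPCC548.06C (ght8). In the gene table of assembly ASM294v3, ght8 and ght1 are direct neighbours on chromosome III with 0 protein-coding genes between them. Also on chromosome III, ght5 and ght6 are separated by 2 protein-coding genes. Whether probes of one member also bind transcripts of another was not tested.

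Total RNA came from single-gene deletion strains, mainly of protein kinases, taken in log phase in minimal medium with a nitrogen source (0 min) or after 60 min without it. Strain RNA (Cy5) was hybridised together with RNA of a wild-type pool (Cy3), whose growth condition is not given in the sources used here. Unstarved cells of 63 deletion strains and starved cells of 62 were analysed here, with 62 strains seen at both times, beside a single wild-type array for each time. Of these strains 4 lack a gene for something other than a protein kinase: cyr1, cgs1, rst2 and atf1, the last a transcription factor of the stress pathway. The pool is labelled wild type and carries no deletion. The wild-type array at 0 min is numbered above 1500 and that at 60 min below it. Both arrays of each paired deletion strain lie on the same side of that number. Whether this difference affects the wild-type change was not tested.

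Every value is a level on the log2 scale, the ratio of strain to pool after centring on the array median. A level of 0 therefore means as much transcript as in the pool, relative to the median probe. The scale sets 1 gene against itself in the pool, so levels of different members cannot be ranked, but their changes between 0 and 60 min can. With 1 array for each strain and time, a p-value here rests on how much strains differ among themselves. The precision is limited by the number of arrays, and signal over background is not given.

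Some arrays need a remark before the results. At both times the transcript of the deleted gene was lowest in the arrays of its own strain for cyr1, cgs1, rst2, ssp1, ssp2, gad8, wis4 and vps15. In 6 strains (byr1, atf1, ppk22, cdk11, ppk33 and srb10) it was lowest at 0 min but not at 60 min, so their 60 min labels are in doubt, and in wis1 it was lowest at neither time, at rank 38 of 63 and 8 of 62. Among unstarved arrays that of rst2 was the most variable, with an SD over probes of 0.825 where the mean array had 0.364. Starved arrays were wider, with a mean SD of 0.983. Quantile normalization, used below as an alternative, gives all arrays of both times the same distribution. It therefore widens most unstarved arrays and narrows most starved ones, which bears on every change given with it. Of 1953 pairs of unstarved arrays, 9 had a correlation over all probes under -0.3 (down to -0.418), and the direction was kept as the dyes in the labels give it.

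Nitrogen starvation moved the members in opposite directions. ght5 and ght8 fell, ght1 fell less, ght3, ght2 and ght7 rose, ght4 rose slightly, and ght6 did not pass the test. With limma and Benjamini-Hochberg adjustment over all 4929 features, 7 of 8 members had an adjusted p under 0.05, of which 4 were higher and 3 lower at 60 min. Of all features 87.4% were called in the same fit, 46.9% higher and 40.5% lower, so the members' count is close to the background. When a change of at least 2-fold was also asked for, 2 of 8 members were called, both lower, against 16.3% of all features (7.53% higher and 8.76% lower). The median change over the members was 0.09, and that over all features was 0.04.

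ght5, the high-affinity glucose transporter, had 0 min levels from -4.33 in rst2 through a median of -0.11 to 1.11 in cyr1. At 60 min its levels ran from -3.52 in lkh1, which lacks a LAMMER kinase, through a median of -2.33 to 0.09 in cyr1. The groups overlap, but 56 of 62 starved arrays lay below every unstarved array other than that of rst2, the lowest of which was hhp1 at -1.57. The mean change was -2.02 ± 0.81 (SD, n = 62), a fall of 4.05-fold with a limma adjusted p of 1.03e-29. It fell in 61 of 62 strains, by at least 2-fold in 59 of them, and in wild type the single pair gave -2.08. With quantile normalization the mean fall of ght5 was smaller, -1.08 (limma adjusted p = 8.40e-12), and 14 of 62 strains rose.

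ght8, a family member without an assigned sugar, had 0 min levels from -0.93 in cyr1 through a median of 0.21 to 0.76 in ssp2. At 60 min the range was -2.21 in byr1 to 0.24 in dsk1, with a median of -0.79. 21 of 62 starved arrays lay below all unstarved arrays, while the others overlapped with them. The mean change was -1.02 ± 0.53 (SD, n = 62), a fall of 2.03-fold with a limma adjusted p of 2.68e-23. It fell in 59 of 62 strains, by at least 2-fold in 32, and by 0.87 in the wild-type pair. Its mean lies close to the 2-fold limit, and it was -0.98 without the 4 strains that lack a non-kinase gene and -0.96 without the arrays numbered 1500 or above, below 2-fold in both.

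ght1, a glucose transporter whose gene is the neighbour of ght8, had 0 min levels from -0.59 in mde3 through a median of -0.14 to 3.59 in cyr1. At 60 min they ran from -1.09 in ppk25 through a median of -0.44 to 1.67 in cyr1. The groups overlapped over most of their range, and 18 of 62 starved arrays were below all unstarved ones. The mean change was -0.32 ± 0.38 (SD, n = 62), with a limma adjusted p of 8.10e-09, and ght1 fell in 54 of 62 strains. This fall shrank to -0.08 and lost its call when arrays were quantile normalized (limma adjusted p = 0.182). The wild-type array at 60 min, at -1.23, was lower than all 62 deletion strains, and the wild-type change was -0.86.

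ght3, the gluconate transporter, had the highest mean change. Its 0 min levels ran from -1.74 in rst2 through a median of -0.19 to 5.24 in cyr1, and the next strain after cyr1 was vps15 at 1.03. At 60 min they ran from -0.85 in lsk1 through a median of 0.63 to 4.88 in cyr1. 15 starved arrays, that of cyr1 included, lay above all unstarved arrays other than that of cyr1. The mean change was 0.87 ± 0.55 (SD, n = 62), a rise of 1.82-fold with a limma adjusted p of 2.59e-19. ght3 rose in 59 of 62 strains and by at least 2-fold in 20, and the wild-type pair gave 1.07.

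ght2, a glucose transporter, stood above the pool before starvation in most strains, with levels from -0.74 in cyr1 through a median of 0.42 to 1.62 in atg1. At 60 min its levels ran from -0.97 in cyr1 through a median of 1.16 to 1.87 in mak3, a histidine kinase strain. Only 4 starved arrays were above all unstarved ones. The mean change was 0.64 ± 0.41 (SD, n = 62), a rise of 1.56-fold in the median-centred values (limma adjusted p = 3.83e-19), but with quantile normalization it turned to -0.06 (adjusted p = 0.454). In the median-centred values it rose in 57 of 62 strains and by 0.97 in wild type.

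ght7, a member without an assigned sugar, had 0 min levels from -1.37 in rst2 through a median of -0.19 to 0.40 in mak2. Its 60 min levels ran from -0.67 in srb10 through a median of 0.08 to 1.43 in ppk18. 20 starved arrays were above all unstarved arrays. The mean change was 0.43 ± 0.53 (SD, n = 62; limma adjusted p = 1.12e-08), with a rise in 51 of 62 strains and of 0.83 in wild type. Its probes differed in level: at 60 min their means were 0.41 and -0.10, with a correlation of 0.43 across strains.

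ght4 moved least among the members that were called, with a change of 0.13 ± 0.29 (SD, n = 62; limma adjusted p = 0.000569) and a rise in 42 of 62 strains. Its 0 min levels ran from -0.44 in cek1 through a median of -0.05 to 3.31 in cyr1, and its 60 min levels from -0.24 in ppk18 through a median of 0.12 to 2.56 in cyr1. No starved array lay outside the range of the unstarved ones, and the wild-type change was 0.01. ght6, the fructose transporter, changed by 0.04 ± 0.46 (SD, n = 62; limma adjusted p = 0.492), up in 32 strains and down in 30. Its levels ran from -1.86 in rst2 through -0.04 to 0.67 in sck2 at 0 min and from -0.90 in wis1 through 0.00 to 0.76 in dsk1 at 60 min. The ght6 probes followed each other little across strains, with a correlation of 0.17 at 0 min and 0.40 at 60 min, where ght5's gave 0.95 and 0.89.

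**Figure D1:**
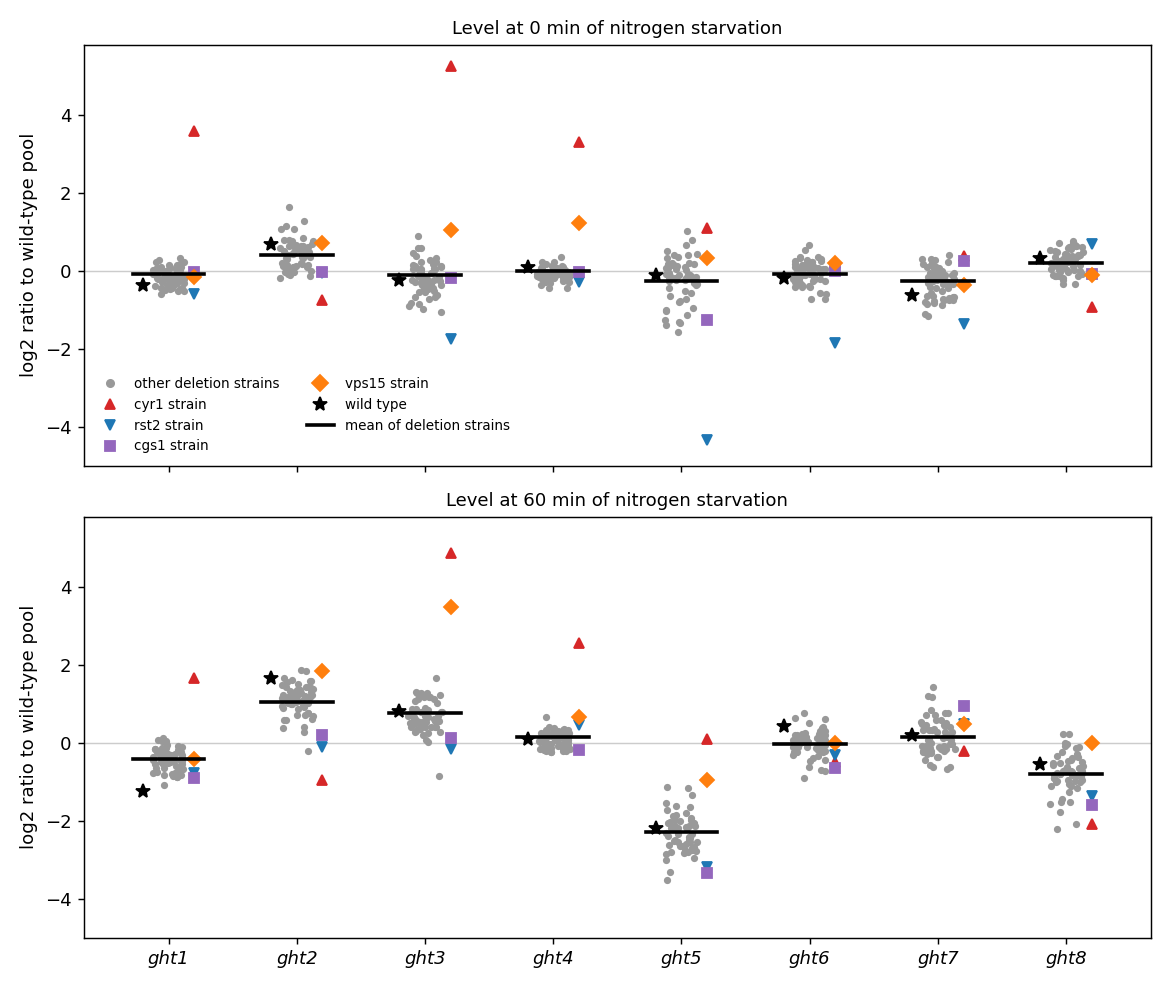
Levels of the 8 members in every array, as the log2 ratio of strain to wild-type pool centred on the array median (vertical axis), at 0 and 60 min; each point is 1 strain, coloured symbols mark cyr1, rst2, cgs1 and vps15, the star is wild type and the line is the mean of the deletion strains. The mean of ght5 drops to -2.28 at 60 min, and cyr1 stands far above the other strains for ght3, ght1 and ght4 at 0 min.

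Because changes of different genes are on the same scale, the members could be set against each other within each strain. By a sign-flip permutation test (two-sided, 100000 resamples, Benjamini-Hochberg over 28 pairs), the changes differed in 27 of 28 pairs of the median-centred values and in 23 of 28 with quantile normalization. The share among pairs of other features was not computed. Since 87.4% of all features changed, these counts are not read as a trait of the family. In the median-centred values only ght4 and ght6 were not separated, with a difference of 0.09 ± 0.06 (SE, n = 62) and an adjusted p of 0.136. The order from most lowered to most raised was ght5, ght8, ght1, ght6, ght4, ght7, ght2 and ght3. ght5 lay 1.00 below ght8, and ght1 lay 0.36 below ght6, both with an adjusted p at 1.17e-05, where the smallest raw p that these permutations can give is 1e-05. With quantile normalization ght5 lay only 0.16 below ght8 (permutation adjusted p = 0.278), so that separation was lost. The other calls lost under it were ght1 against ght2 (adjusted p = 0.823), ght2 against ght6 (0.107) and ght3 against ght7 (0.0741). Among the members that rose, ght2 lay 0.22 below ght3 (permutation adjusted p = 0.00431) and 0.21 above ght7 (adjusted p = 0.0133), but with quantile normalization ght2 lay 0.63 below ght7.

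The ends of this order were also counted within each strain. ght5 had the lowest change of the 8 members in 56 of 62 strains, ght8 in 5 and ght1 in 1. The highest change belonged to ght3 in 29 strains, ght2 in 20, ght7 in 12 and ght6 in 1. With quantile normalization ght5 was lowest in 37 strains and ght8 in 16, and ght3 was highest in 29 and ght7 in 20. Neighbours within the order were less regular: in the median-centred values ght2 changed less than ght3 in 38 of 62 strains, ght7 less than ght2 in 43 and ght6 less than ght4 in 32. Within each physically close pair the genes moved unequally: ght5 fell by 2.02 and ght6 changed by 0.04, and ght8 fell by 1.02 where ght1 fell by 0.32.

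**Figure D2:**
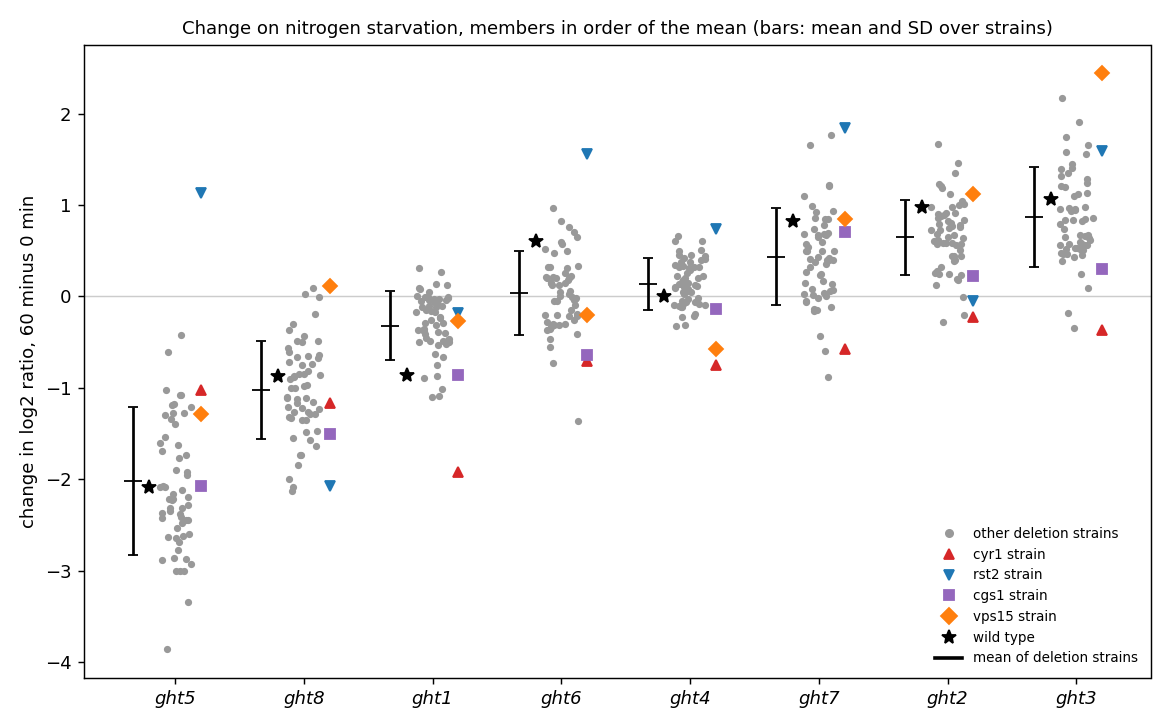
Change in the log2 ratio from 0 to 60 min (vertical axis) for each member, in order of the mean; each point is 1 of 62 deletion strains, symbols mark named strains and wild type, and bars give mean and SD over deletion strains. ght5 is lowest with a mean of -2.02 and ght3 highest with 0.87; rst2 is the only strain in which ght5 rose in these median-centred values, where quantile normalization gave 14 such strains and turned the mean rise of ght2 to -0.06.

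The extremes of the strain distributions fell to few strains. Counting the 2 highest and 2 lowest strains for each member and time, cyr1 appeared in 12 of the 16 cases, rst2 in 6 and vps15 in 4, while byr1, sck2 and srb10 appeared in 3 each. The strain-to-strain SD of ght3 at 0 min, 0.83, exceeded that of 99.6% of all features, and that of ght5, 0.79, exceeded 99.5%. For ght1 and ght4 the spread at 0 min, with an SD of 0.52 and 0.48, rested on cyr1. Without cyr1 the SD over the other paired strains was 0.23 for both. Without the 4 non-kinase strains the percentile at 0 min went from 97.1 to 53.5 for ght1 and from 96.0 to 58.8 for ght4. In the same setting ght5 kept 98.5 and ght3 95.6.

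In the strain without the adenylate cyclase gene cyr1, the members other than ght6 and ght7 split into a raised and a lowered group at both times. ght3 had a level of 5.24 at 0 min and 4.88 at 60 min, which was 43.1-fold and 18.1-fold above the mean of the other strains, or 13.4-fold and 6.02-fold with quantile normalization. Those deviations had rank 3 and rank 6 from the top of 4929 features in their arrays. ght1 was 13.3-fold above the other strains at 0 min and 4.33-fold at 60 min, ght4 10.3-fold and 5.52-fold, and ght5 2.63-fold and 5.29-fold. Quantile normalization gave 9.34-fold and 2.71-fold for ght1, 7.82-fold and 2.86-fold for ght4, and 4.05-fold and 3.05-fold for ght5. In the other direction ght2 differed from the others by -1.17 on the log2 scale at 0 min and by -2.06 at 60 min, and ght8 was 2.23-fold and 2.47-fold lower. With quantile normalization these were 3.57-fold and 2.60-fold for ght2, and 3.37-fold and 1.80-fold for ght8, all lower. ght6 and ght7 had deviations of 0.28 and 0.65 at 0 min, and of -0.48 and -0.37 at 60 min.

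The cyr1 deletion is 1 strain with 1 array per time, so an exact permutation test over 62 strains cannot go below a p of 0.0161. On the mean of both times, ght1, ght3 and ght4 (higher by 2.93, 4.80 and 2.92) and ght2 and ght8 (lower, with differences of -1.61 and -1.23) reached that exact two-sided p. After adjustment over the 16 tests it was 0.0516, and 0 members were called. For ght5 the difference was 1.90 (exact p = 0.0323, adjusted 0.0860). With quantile normalization 6 members, the same ones, had an exact test with an adjusted p of 0.043, and the difference of ght3 was 3.16 in place of 4.80. The exact test was run on the members only, so the share of all features as far apart in cyr1 is not known.

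The cyr1 levels can be read beside genes of glucose use, from lists chosen with earlier results of these data known. In the same arrays fbp1, which encodes the gluconeogenic fructose-1,6-bisphosphatase and is a standard glucose-repressed gene, deviated from the other strains by 5.75 at 0 min and 5.03 at 60 min. The dihydroxyacetone kinase genes dak1 (3.20 and 3.45) and dak2 (2.58 and 3.01), the glycerol dehydrogenase gene gld1 (3.06 and 2.55) and the gluconokinase gene idn1 (1.78 and 1.51) were also above the other strains. The invertase gene inv1 deviated less, by 0.88 and 0.46, as did the malic enzyme gene mae2, by 0.19 and 0.34, and the maltase gene mal1 was below the others, at -0.08 and -0.38. Of the 12 glycolysis genes measured, 10 were below the other strains in cyr1 at 0 min and 5 at 60 min, with deviations from -1.10 to 1.75 and from -0.37 to 1.38. These are values of 1 strain, chosen after they were seen, with no test.

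Loss of rst2, whose product activates glucose-repressed genes, went with low values of several members before starvation. ght5 had a level of -4.33 at 0 min, 17.5-fold below the mean of the other strains and the second lowest deviation of all 4929 features in that array. At 60 min its level was -3.20, 1.91-fold below the others. With quantile normalization these levels were -2.75 and -2.44, which was 5.01-fold and 1.90-fold below the others. ght6 (-1.82), ght3 (-1.67) and ght7 (-1.11) also deviated downwards at 0 min, while ght8 (0.49) did not. With quantile normalization these 0 min deviations were -1.09 for ght6, -0.85 for ght3 and -0.34 for ght7. In the starved rst2 array ght2 (-1.17) and ght3 (-0.94) stood below the other strains, and ght6 and ght7 were at -0.28 and 0.32. These 0 min values come from the most variable unstarved array, and the part of that spread in them was not tested.

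The cgs1 strain, in which protein kinase A lacks its regulatory subunit, had ght5 deviations of -1.03 at 0 min and -1.09 at 60 min, or -1.81 and -0.81 with quantile normalization. ght2 was lower by 0.44 and 0.88, and ght7 was higher by 0.52 and 0.81. The set of cgs1 and rst2 was chosen with earlier results of these data known. Both together were set against the other strains in a limma fit on the mean of both times. There 3 of 8 members passed at an adjusted p under 0.05, against 25.1% of all features: ght5 at -1.83 ± 0.34 (SE; adjusted p = 6.65e-05), ght6 at -0.68 ± 0.17 (adjusted p = 0.00207) and ght2 at -0.75 ± 0.27 (adjusted p = 0.0320). Without rst2, which leaves cgs1 alone and assumes that it varies like the others, 0 members passed and ght5 stood at -1.10 (limma adjusted p = 0.204).

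For the change between 0 and 60 min the same fit called 0 members, against 3.9% of all features, and 4 had an unadjusted p under 0.05. ght5 gave a difference of 1.60 ± 0.53 (SE; limma adjusted p = 0.0670). In rst2 alone, with 1 array per time, the change of ght5 lay 3.20 above the mean of the other strains in the median-centred values. The arrays of cyr1, cgs1 and rst2 carry numbers of 1500 or above, close to each other, and only 6 strains have such numbers. Compared with the other 4 of these alone, cyr1 among them, ght5 differed by -2.08 on the mean of both times (limma adjusted p = 0.171), ght6 by -0.52 and ght2 by -0.43. None was called with so few strains. In cyr1 the ght5 mean of both times, 0.60, was the highest of the 62 strains. Its place among the 4 therefore enlarges the ght5 difference. The part of the array series in these values was not tested.

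**Figure D3:**
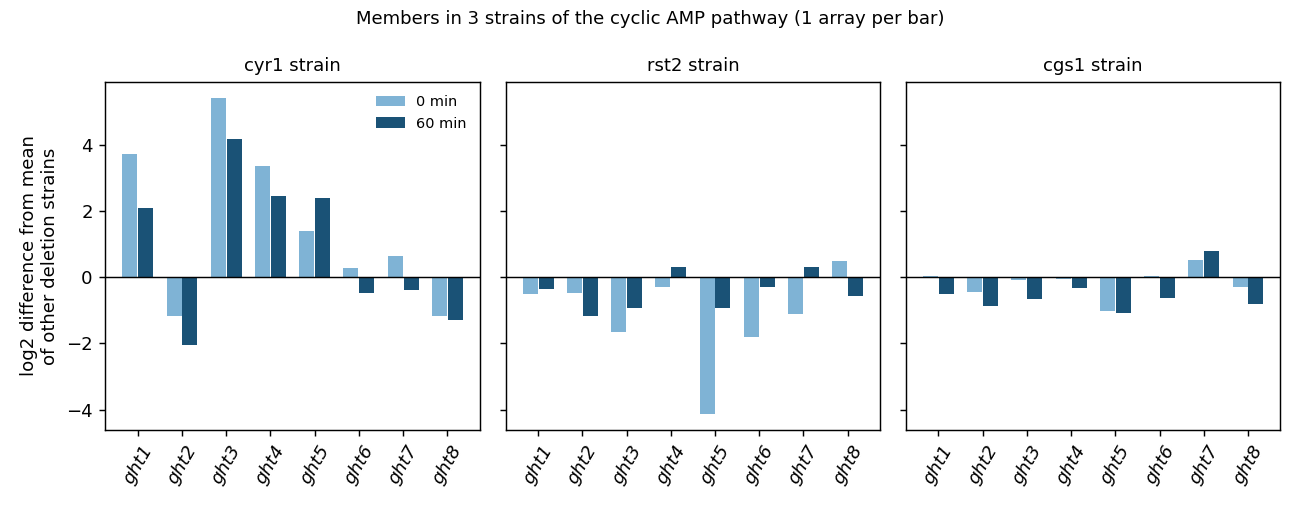
Levels of the members in the strains cyr1, cgs1 and rst2 as differences from the mean of the other deletion strains (vertical axis, log2), at 0 and 60 min; each bar is 1 array. ght3, ght1 and ght4 are far above 0 in cyr1, and ght5 is far below 0 in rst2 at 0 min.

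The vps15 strain lacks a kinase that works with the phosphatidylinositol 3-kinase in vacuolar sorting and autophagy. There ght3 was 2.23-fold above the other strains at 0 min and 6.73-fold above at 60 min, the third highest deviation of all features in the starved array. Its change of ght3, 2.44, was the largest of the 62 strains in the median-centred values. With quantile normalization ght3 was 3.32-fold and 3.37-fold above the others, and its change in vps15 was 0.80, near the mean of 0.77 over strains. ght5 was also high in vps15, with deviations of 0.60 and 1.34, and ght8 changed by 0.11 where the mean of the strains was -1.02. ght4 stood 1.26 above the others at 0 min and 0.54 above at 60 min.

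The strains of the AMP-activated kinase pathway, ssp1 and ssp2, were tested together against the others. With limma 0 of 8 members were called for the mean of both times, where 0.0609% of all features were, and 0 for the change, where 0 features were called. None of the 8 had an unadjusted p under 0.05 in either fit. The 2 strains differed from each other at 0 min: ght5 stood at -1.40 in ssp2, the third lowest strain, and ght8 was highest of all strains in ssp2 (0.76) and second lowest in ssp1 (-0.34).

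The stress pathway strains wis1, wis4 and atf1 gave 0 called members for the mean of both times (0.0406% of all features), none with an unadjusted p under 0.05, and 0 for the change (0.101%). Of these strains only wis4 had the lowest transcript of its own deleted gene at both times. For the change 3 members had an unadjusted p under 0.05 in limma: ght5 with -1.25 (adjusted p = 0.260), ght8 with -0.62 (adjusted p = 0.433) and ght2 with -0.55 (adjusted p = 0.359). The atf1 strain had the largest fall of ght5, -3.86, but its 60 min label is among those in doubt, as is that of byr1, the strain with the lowest starved level of ght8. In gad8, which lacks a kinase downstream of TOR complex 2, the members differed from the other strains by -0.32 to 0.22, and the smallest exact permutation p over the 8 was 0.371.

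**Figure D4:**
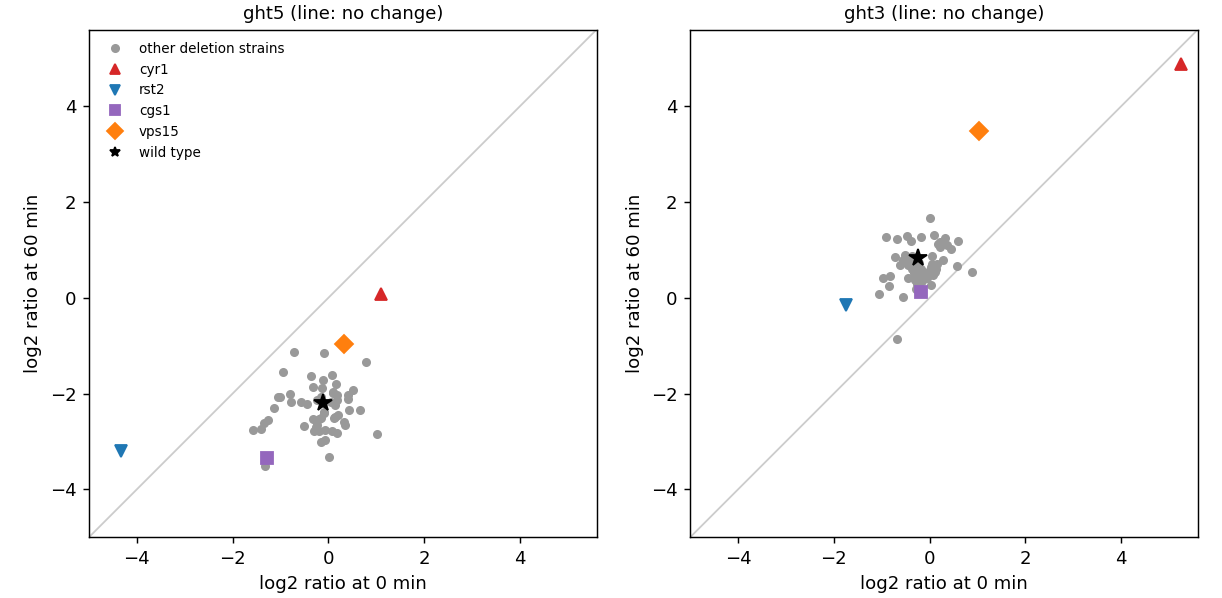
Level of ght5 (left) and ght3 (right) at 0 min (horizontal axis) against 60 min (vertical axis), as centred log2 ratios to the wild-type pool; each point is 1 strain, and the diagonal marks no change. In these median-centred values only rst2 lies above the diagonal for ght5 (change 1.133; 14 strains rose with quantile normalization), and for ght3 cyr1 (5.24 and 4.88) and vps15 (1.03 and 3.47) lie apart from the other strains.

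Whether a strain held its level of a member through starvation was read from the correlation of 0 and 60 min levels over 62 strains. Pearson's r was called for 7 of 8 members (permutation p, Benjamini-Hochberg over 8) and Spearman's rho for 2, ght2 and ght3. The share of all features that would be called was not computed, so these counts have no background to be set against. ght2 had an r of 0.62 (adjusted p = 4e-05) and a rho of 0.58 (adjusted p = 8e-05), and r was 0.56 without the 2 strains farthest from the median. For ght3 r was 0.77 and rho 0.36 (adjusted p = 0.0173), with r at 0.44 without cyr1 and rst2. The relation of ght4 rested on 2 strains: r fell from 0.81 to 0.07 without cyr1 and vps15, and rho was 0.08. For ght1 r fell from 0.69 to 0.26 without cyr1 and ppk27. ght5 gave an r of 0.36 (adjusted p = 0.0132) and a rho of 0.24, and ght6 an r of 0.14 (permutation adjusted p = 0.290).

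Across strains, 14 of 28 pairs of members correlated by Pearson's r on the mean of both times (permutation p, Benjamini-Hochberg over 28), 5 of them negatively. The share among all pairs of features was not computed, so this count and those below are not read as a trait of the family. The highest were ght3 with ght4 (r = 0.84), ght1 with ght4 (0.82) and ght1 with ght3 (0.77). The latter 2 rested on cyr1, without which r was 0.13 and 0.20. For ght3 with ght4 r was 0.42 without cyr1, still called (permutation adjusted p = 0.0225), and 0.05 without both cyr1 and vps15. By rank, 5 pairs were called: ght3 with ght7 (rho = 0.54, r = 0.33), ght1 with ght5 (0.43, r = 0.54), ght2 with ght8 (0.43, r = 0.55), ght6 with ght7 (0.41, r = 0.38) and ght3 with ght6 (0.34, r = 0.20). Without the 2 farthest strains their r lay at 0.58, 0.34, 0.37, 0.32 and 0.46 in that order.

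Of the physically close pairs, ght5 with ght6 had an r of 0.29 (permutation adjusted p = 0.05) and a rho of 0.09, and ght1 with ght8 an r of -0.35 and a rho of 0.11. The negative value of ght1 with ght8 turned to 0.11 without cyr1. Without that strain 10 pairs were called by Pearson's r, 0 of them negative.

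**Figure D5:**
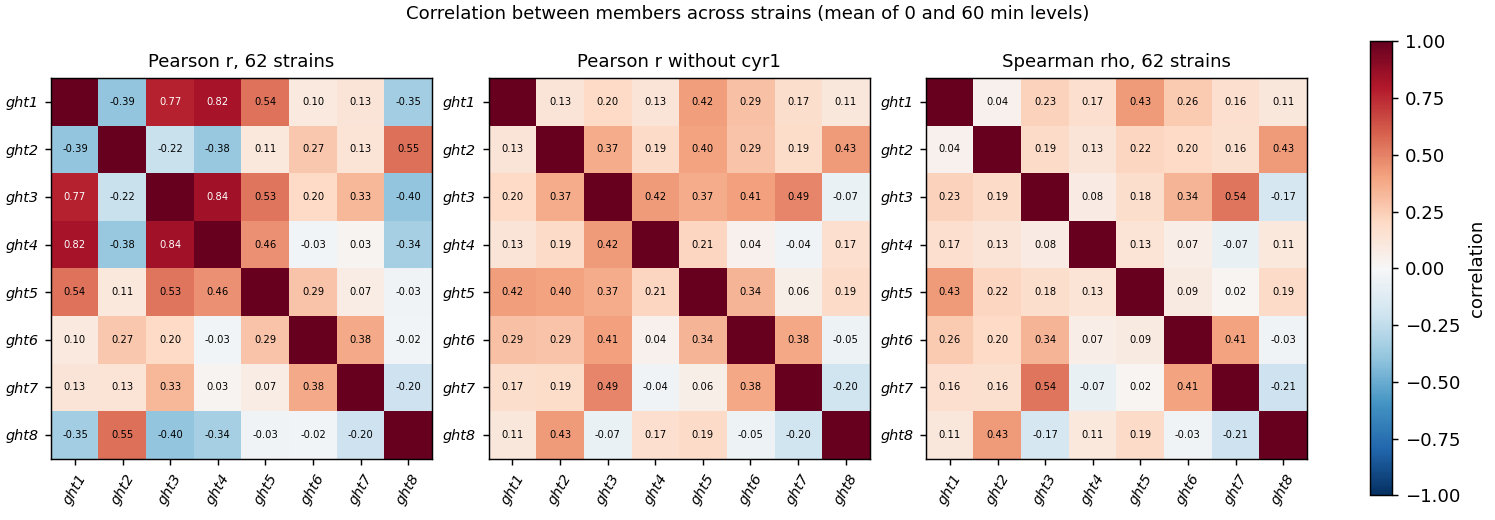
Correlation between members across strains of the mean of the 0 and 60 min levels, as Pearson's r over 62 strains (left), Pearson's r without cyr1 (middle) and Spearman's rho (right); colour and number give the coefficient. The value of 0.84 for ght3 with ght4 in the left panel compares with a rho of 0.08 in the right panel.

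The features most like each member were taken as the 3 with the highest Spearman rho over 62 strains, averaged over both times, as a description of these arrays. The levels of ght5 went most closely with nep2 (0.74), which encodes a NEDD8 protease, with plb1 (0.63), a phospholipase gene, and with the gluconokinase gene idn1 (0.55). The fourth was ght1 (0.50). For the other members the closest fellow member came later, from rank 24 for ght1 to rank 447 for ght2 among 4927 features. nep2 was also among the 3 nearest of ght1 (0.58), beside SPAC6F6.04C (0.60) and elp6 (0.58), and it was nearest to ght4, there only at 0.39, before slt1 (0.38) and oxr1 (0.36). ght2 was closest to msy1 (0.73), pil1 (0.73), the gene of an eisosome protein of the plasma membrane, and pho8 (0.69), a vacuolar phosphatase gene.

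ght3 was closest to SPAC23C11.06C (0.62), SPCC1739.08C (0.62) and SPBC24C6.09C (0.60). For ght6 these were mug112 (0.66), cid11 (0.65) and SPAC1A6.11 (0.64), and for ght7 mcp6 (0.62), fmd3 (0.60) and SPAC977.04 (0.59). ght8 stood nearest to the fatty acid desaturase gene ole1 (0.59), the S-adenosylmethionine synthetase gene sam1 (0.59) and the arginine synthesis gene arg11 (0.58).

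Other genes of sugar use can be set beside the transporters. Of the glycolysis list, 12 of 13 genes were measured, and limma called 3 higher, 8 lower and 1 neither, with a median change of -0.43, where 46.9% of all features were called higher and 40.5% lower. gpd3, a glyceraldehyde 3-phosphate dehydrogenase gene, rose by 2.13 ± 0.13 (SE, n = 62), and pgi1, the glucose 6-phosphate isomerase gene, by 0.49. The phosphoglycerate mutase gene gpm1 and the enolase gene eno101 fell by 0.89 and 0.77. Of 8 measured genes for glucose-repressed and alternative carbon use, 5 rose and 2 fell, beside the same 46.9% and 40.5% of all features, with a median of 0.43. fbp1 rose by 0.95 and mal1 by 0.85, while idn1 fell by 0.65 and dak2 by 0.17.

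Among 4 other transporters of sugars, polyols and acids, 3 rose and 1 fell (46.9% and 40.5% of all features), with a median change of 0.18. The largest rise was that of sut1, which encodes an alpha-glucoside transporter, at 2.18 ± 0.06 (SE, n = 62), larger than that of any ght gene. The inositol transporter genes itr2 and itr1 rose by 0.24 and 0.11, and the malate permease gene mae1 fell by 0.13. Of 24 measured glucose signalling genes 21 rose and 3 fell, with a median of 0.40, against 46.9% and 40.5% of all features. The protein kinase A gene pka1 (1.57) and the G protein beta subunit gene git5 (1.55) rose most, and git10, the Hsp90 gene (-2.31), and ssp1 (-1.18) fell most. The means include the strain that lacks the gene itself.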

How the data were processed

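The deposited table holds linear ratios of Cy5 (strain) over Cy3 (wild-type pool), the dyes per the labels. What scaling and background correction the authors applied is not given in the sources used here. The median ratio of an array was 0.932 at the lowest and 1.09 at the highest. Of 9858 probes on 127 arrays, 9632 carry 1 symbol, 44 several and 182 none, and 6 ratios of 0 (none in a ght probe) were set to missing. Log2 values were centred on the array median and the 2 probes of a gene averaged. A feature needed a value in 80% of the strain pairs.

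R 4.3.3 with limma 3.58.1 fitted the change within each strain (60 and 0 min arrays paired by strain name, that is by genotype) and the strain sets, with Benjamini-Hochberg adjustment over 4929 features. Python 3.11.15 with numpy 2.4.6, pandas 2.3.3 and matplotlib 3.10.9 ran the permutation tests and drew the plots. The fit was tested on simulated data. Alternatives covered quantile normalization, centring, single probes, pairing, strains left out and the fold limit. Those without cyr1 or rst2 in the change and correlations, and without cyr1 (or cyr1 and rst2) in the strain sets, were chosen after seeing the data.

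Arrays were grouped by title. For the starved wild-type array the title was followed, since a different label of it reads kinase deletion. The strain labelled prk1 is called srb10 here; shortened locus names were replaced by gene names. Named by rule were all members, the 2 highest and lowest strains per member, time and change, the 3 most similar features, and the 2 highest and lowest changes of each list. The members, lists and strain sets were chosen with earlier results of these data known. Values of cyr1, rst2, cgs1, vps15, ssp1 and ssp2 beyond that rule, and those of list genes in cyr1, were chosen after they were seen. Listed genes agl1, eno102 and cbs2 had no match. Promoter and protein sequences were not analysed here.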

Additional observations from a re-analysis of the deposited data

Results flagged for a closer look

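The change of ght5 in rst2 went against that in every other deletion strain. It was 1.133 in rst2, while the other 61 strains lay between -3.86 and -0.42. rst2 has 1 array per time, and this difference was not tested. The 0 min level of ght5 in that strain, -4.33, is the lowest of 63, and it comes from the most variable unstarved array. Quantile normalization narrows that wide array and widens most other unstarved ones. With it the change of ght5 was 0.31 in rst2, 14 of 62 strains rose, and the highest other strain was at 1.01. In those values rst2 no longer stood apart.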

How the results depend on the processing

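With quantile normalization the change was -0.0604 for ght2 (adjusted p = 0.454, direction turned) and -0.0813 for ght1 (adjusted p = 0.182), and the change of ght2 minus that of another member turned to -0.21 for ght4, -0.16 for ght6 and -0.63 for ght7. ght6 in cyr1 turned to 0.0401 and ght7 in gad8 to 0.0815, neither called. In cyr1 6 members were apart in place of 0, with no share over all features computed. There ght5 joined ght1, ght2, ght3, ght4 and ght8 at the smallest possible exact p. This lowered their shared adjusted p of the exact permutation test from 0.0516 to 0.043. The starvation changes of the 6 members other than ght1 and ght2 kept direction and call with quantile normalization. All 8 did so with no centring, with either probe, and without doubted labels, arrays numbered 1500 or above, non-kinase strains, rst2 or cyr1. With no replicate block (the pairing by strain dropped) ght4, at 0.13, lost its call (adjusted p = 0.0970), and no other member's call changed. At 1.5-fold, 2 members were called higher in place of 0. The members called lower at 2-fold or more went from 2 to 1 with quantile normalization, probe 2 alone, without arrays numbered 1500 or above, or without non-kinase strains. For cgs1 and rst2 the members called on the mean of both times went from 3 to 1 with quantile normalization and to 0 against arrays numbered 1500 or above. Leaving out either strain leaves a single strain in the set. The ght5 difference on the mean of both times was then -1.10 without rst2 and -2.56 without cgs1. Without non-kinase strains the correlation of 0 and 60 min levels was 0.24 for ght1, 0.21 for ght5 and 0.21 for ght8, and without cyr1 it was 0.21 for ght1 and 0.19 for ght8, none called. Correlated pairs numbered 4 in place of 14 without non-kinase strains, where ght1 with ght8 gave 0.0769 and ght5 with ght6 -0.0124; without cyr1, ght1 with ght8 gave 0.11. The causes were not tested. Signal over background is not given, so its limits are unknown.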
